A study of Mus musculus with 3 samples.

Results

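Chemokine receptors were followed across the stromal cells, macrophages and lymphocytes of day 5 implants that form heterotopic ossification (HO), the growth of bone in soft tissue. The 9 receptors were *Ccr1*, *Ccr2*, *Ccr3*, *Ccr7*, *Cxcr2*, *Cxcr4*, *Cxcr6*, *Cx3cr1* and *Ackr3*, all found by symbol among the 31053 genes of the deposited counts. All implants were placed under the skin of female CD-1 mice aged 6 to 8 weeks. The Matrigel-only mice carried Matrigel, a basement membrane gel, and were given nothing by mouth. The Vehicle mice carried Matrigel with rhBMP2, a recombinant protein that induces cartilage and then bone at the site, and were fed corn oil with DMSO, the carrier of the drug. The Palo mice carried the same BMP2 implants and were fed Palovarotene, an agonist of the retinoic acid receptor gamma, at 4 mg/kg. The masses were digested with dispase and each group gave 1 droplet library, in which transcripts were counted by unique molecular identifiers (UMIs). Since 1 library stood for each group, the spread between animals is unknown, no test was run, and all intervals (95%) cover counting error only. BMP2 and the feeding of the carrier differ together between the Matrigel-only and Vehicle mice and cannot be told apart.

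Chemokines are small secreted proteins that steer the migration of cells, and their receptors are membrane proteins with helices that cross the membrane and signal through G proteins. *Ccr1*, *Ccr2*, *Ccr3* and *Ccr7* encode receptors of CC chemokines, *Cxcr2*, *Cxcr4* and *Cxcr6* receptors of CXC chemokines, and *Cx3cr1* the receptor of fractalkine. *Ackr3* encodes an atypical receptor that binds CXCL12, removes it from the tissue and does not signal through G proteins in the usual way. CCR2 brings monocytes out of the bone marrow into injured tissue, and CX3CR1 marks many resident and patrolling mononuclear phagocytes.

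Cells were assigned to classes by fixed rules that used none of the receptors, and a cell could meet more than 1 rule. Stromal cells were those with at least 1% of their UMIs from *Col1a1*, *Col1a2*, *Col3a1*, *Dcn* and *Lum*, genes of fibrous matrix. They numbered 2085 in the Matrigel-only library, 1373 in the Vehicle library and 1184 in the Palo library, the order in which values are given throughout. Macrophages were cells with a UMI of *Csf1r*, the receptor of macrophage colony-stimulating factor, or *C1qa*, a complement gene, and numbered 6292, 3617 and 5990. Lymphocytes were cells with a UMI of *Cd3e*, of the T cell receptor complex, or *Nkg7*, of cytotoxic granules, and numbered 71, 285 and 62. A further 781, 624 and 408 cells met no rule. The libraries held between 44252421 and 46901673 UMIs on 9249, 6065 and 7905 barcodes. Between 90.3% and 94.4% of the barcodes passed the limits on genes and mitochondrial UMIs, and 8 to 17 of the passing barcodes were shared by each pair of libraries.

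The stromal and macrophage marker lists include the genes of their class rules, so their high levels in those classes were partly fixed in advance. All 12 stromal markers were detected in stromal cells of every library, with a summed level of 58934 to 94706 UMIs per 1000000 UMIs of the class (CPM), and all 12 macrophage markers in macrophages, at 13884 to 22646 CPM. Stromal markers also summed to 13551 to 20823 CPM in macrophages and to 15391 to 50891 CPM in lymphocytes, and cells that met both rules stayed in both classes. All 12 stromal markers were detected in these 2 classes of every library too, so detection did not separate the classes. Cells that met more than 1 rule numbered 498, 419 and 345 and held 27.9% to 32.4% of the stromal UMIs, 15.4% to 34.5% of the macrophage UMIs and 49.9% to 69.0% of the lymphocyte UMIs. Among lymphocytes, 83.1% of Matrigel-only, 92.3% of Vehicle and 83.9% of Palo cells held another T or NK cell marker, against 8.11%, 17.8% and 12.4% of all other cells. The 14, 16 and 12 lymphocytes that also met the stromal rule held 60.9%, 27.9% and 57.3% of the lymphocyte UMIs, and another T or NK marker was found in only 2, 7 and 2 of them. Levels are therefore given for all cells of a class and, where it matters, for the cells of 1 class only, those that met no other rule. Depth also differed, with a median of 9082, 17114 and 12955 UMIs per stromal cell, 3228.5, 4011 and 4379 per macrophage and 1778, 2290 and 2468.5 per lymphocyte. Shares of cells with a receptor UMI are therefore given after each cell was thinned to 1000 UMIs. Shares of cells set by marker genes were counted at full depth and are not matched for depth.

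The receptors differed in the class that carried them. *Ackr3* was highest in stromal cells, *Ccr1*, *Ccr2*, *Cxcr4* and *Cx3cr1* were high in macrophages, *Cxcr6* was highest in lymphocytes, and *Ccr7* and *Cxcr2* were highest in the cells of no class. *Cxcr4* could not be ordered between macrophages and lymphocytes, since the intervals overlapped in each library. In cells of 1 class only it was higher in the lymphocytes of the Matrigel-only library, at 123 CPM (61.2 to 219, 11 UMIs) against 43.3 (40.5 to 46.3), and the intervals overlapped in the others. *Ccr2* could not be ordered between these classes in any library once cells of more than 1 class were left out. The cells of no class also carried these receptors, with *Ccr2* at 955, 560 and 850 CPM and *Cxcr4* at 60.5, 91.8 and 48.8 CPM. *Cxcr4* was thus higher there than in macrophages (35.7, 51.9 and 32.9 CPM) in every library. *Ccr2* was higher there than in macrophages in the Matrigel-only and Vehicle libraries (587 and 483 CPM), and *Ccr1* in the Vehicle library. Against macrophages of 1 class only, *Ccr2* was higher there in the Matrigel-only library alone (724 CPM) and *Ccr1* in none. *Ackr3* was next highest in lymphocytes, but only through cells that met another rule, since lymphocytes of 1 class held 0, 5 and 1 UMIs of it. Over all cells of a class *Ccr3* was under 1.5 CPM in stromal cells and macrophages and was found above that in the Vehicle lymphocytes and in the cells of no class. The plot of levels by class gives all 9 receptors in the 3 libraries.

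**Figure D1:**
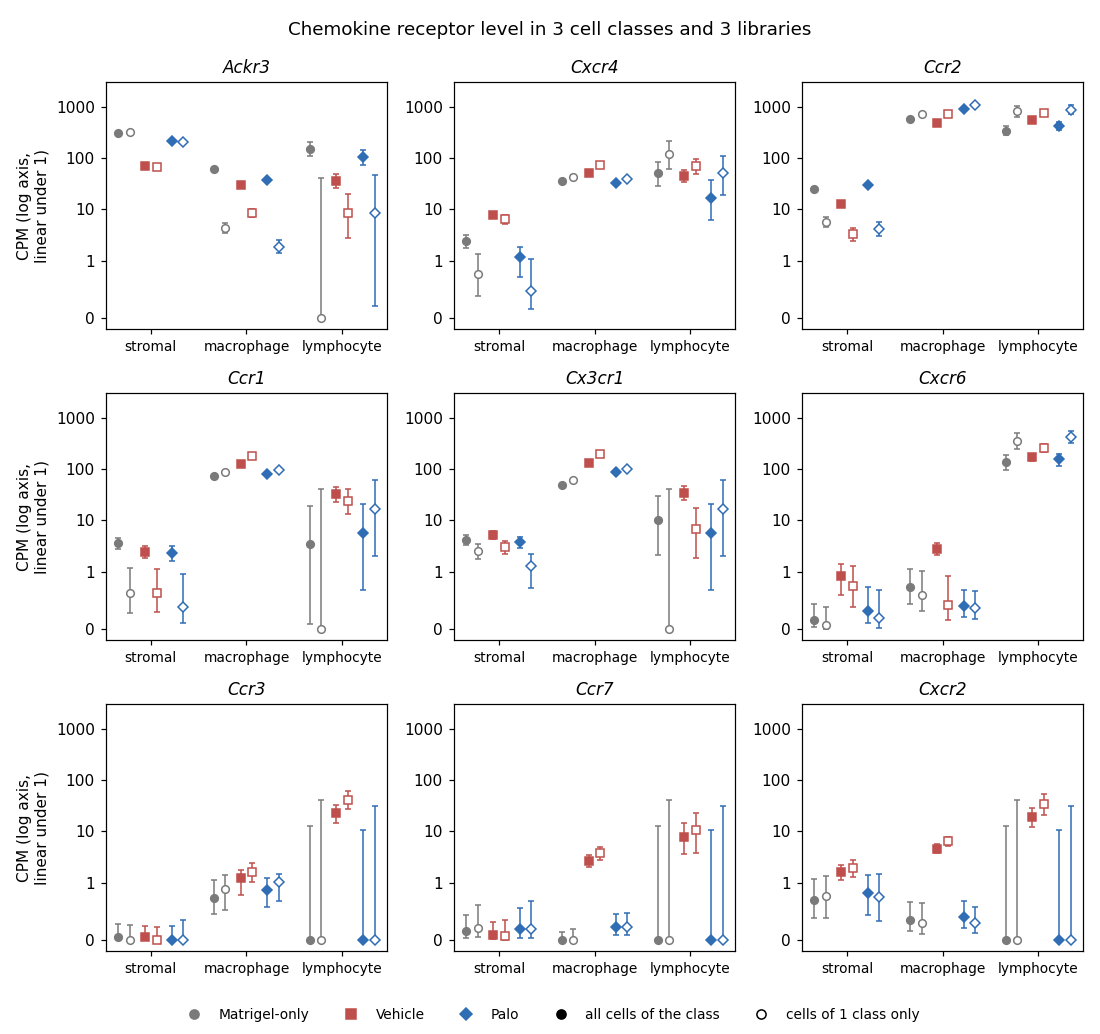
Level of each chemokine receptor in CPM (logarithmic axis that is linear under 1) in stromal cells, macrophages and lymphocytes. Circles are the Matrigel-only, squares the Vehicle and diamonds the Palo library, filled for all cells of the class and open for cells of 1 class only, with exact Poisson 95% intervals. *Ackr3* stood at 69.6 to 311 CPM in stromal cells, and its level in macrophages was under 10 CPM once cells of more than 1 class were left out.

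The same pattern was seen in where each receptor's UMIs lay. Of the *Ackr3* UMIs, 74.0%, 60.4% and 64.1% lay in cells that were stromal only and 24.5%, 30.9% and 34.4% in cells of more than 1 class. Cells that were macrophages only held 84.5% to 94.4% of the *Ccr2* UMIs, 87.3% to 96.5% of the *Ccr1* UMIs and 90.3% to 97.0% of the *Cx3cr1* UMIs. *Cxcr4* was less tied to macrophages in the Vehicle library, where 72.7% of its UMIs lay in them, against 83.4% in the Matrigel-only and 92.3% in the Palo library. Cells that met no rule held 57.9% and 46.0% of the *Cxcr6* UMIs of the Matrigel-only and Palo libraries, so the lymphocyte rule covered less than all cells with this receptor.

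**Figure D2:**
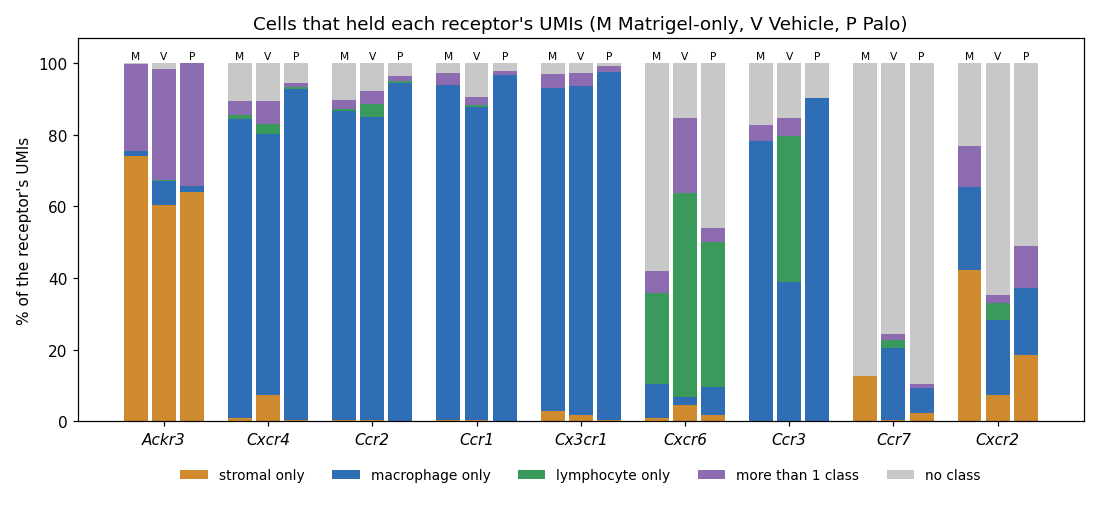
Percent of each receptor's UMIs that lay in cells of 1 class only, of more than 1 class or of no class, in the Matrigel-only (M), Vehicle (V) and Palo (P) libraries. *Ccr7* UMIs lay mostly in cells of no class, 75.8% to 89.5%, and *Ccr3* rests on 23, 59 and 31 UMIs in all.

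In stromal cells *Ackr3* was low under BMP2 and closer to the Matrigel-only level under palovarotene. Matrigel-only stromal cells held 311 CPM (95% interval 304 to 319), Vehicle cells 69.6 CPM (66.2 to 73.0) and Palo cells 214 CPM (207 to 222). These intervals were far apart. The Vehicle level was 4.48-fold lower than the Matrigel-only level (interval 4.24 to 4.73), the Palo level 3.08-fold higher than the Vehicle level (2.90 to 3.27) and 1.45-fold lower than the Matrigel-only level (1.39 to 1.52). After thinning, 24.7%, 6.46% and 16.5% of stromal cells had an *Ackr3* UMI. In cells that were macrophages only, the thinned share was 0.464%, 1.14% and 0.172%. Their median depths were 3089, 3633 and 4252 UMIs, against 8622.5, 16203 and 12312 in cells that were stromal only. The source of the *Ackr3* UMIs in macrophages was not tested. With cells of 1 class only the stromal levels were 325, 67.4 and 206 CPM.

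*Ackr3* lies on chromosome 1 of mm10, at 90203980 to 90216751 on the plus strand in GENCODE vM21. *Cxcr4*, the signalling receptor of the same ligand, lies at 128588199 to 128592293 on the minus strand of the same chromosome. Both promoters are shown because the levels of this receptor pair differed in opposite directions between the stromal libraries. Each runs from 250 bases before to 50 bases after the start in the RefSeq table of GRCm38.p6, 5′ to 3′ on the strand of the gene, with the motif GCGTG in capitals.
Ackr3, chr1:90203730-90204029, plus strand: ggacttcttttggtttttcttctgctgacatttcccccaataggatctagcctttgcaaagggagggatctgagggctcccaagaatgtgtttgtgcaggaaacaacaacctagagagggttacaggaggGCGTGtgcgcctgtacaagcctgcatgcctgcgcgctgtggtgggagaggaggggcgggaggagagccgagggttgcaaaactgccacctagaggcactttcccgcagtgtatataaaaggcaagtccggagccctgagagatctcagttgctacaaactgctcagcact
Cxcr4, chr1:128592250-128592549, minus strand: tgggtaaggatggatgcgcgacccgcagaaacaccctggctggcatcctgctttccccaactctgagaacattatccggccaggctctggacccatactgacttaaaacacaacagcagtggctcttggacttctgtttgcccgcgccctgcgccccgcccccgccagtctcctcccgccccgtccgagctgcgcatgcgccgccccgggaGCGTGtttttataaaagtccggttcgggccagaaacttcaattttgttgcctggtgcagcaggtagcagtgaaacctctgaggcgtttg
GCGTG, the core of some hypoxia response elements, was searched on both strands and occurred at 1 place in each of these windows. It was found in 4 of the 8 receptors with a window in the table (*Ccr1*, *Cxcr4*, *Cx3cr1* and *Ackr3*) and in 32.4% of all 32851 windows. The related core ACGTG was in none of the 8 windows and in 19.6% of all. GGAAGT, a motif of the ETS family to which the myeloid factor PU.1 belongs, was in those of *Ccr3* and *Cxcr2* and in 23.8% of all. *Ccr7* had no window in the table.

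Within the stroma the level of *Ackr3* differed between groups of cells. Groups of cells were set by marker UMIs among cells that were stromal only, and a cell with both *Pi16* and *Sox9* entered both of those groups. In cells with *Pi16*, a marker of fibroblast progenitors, *Ackr3* stood at 419 CPM in the Matrigel-only library (895 cells), 246 in the Vehicle library (113 cells) and 306 in the Palo library (275 cells). In cells with *Sox9*, the transcription factor of the cartilage lineage, but without the cartilage matrix genes *Acan* or *Col2a1*, it stood at 170, 80.3 and 141 CPM in 365, 215 and 293 cells. Every one of these levels was below that of the *Pi16* cells of the same library. Cells with *Acan* or *Col2a1* made up 65.2% of the Vehicle cells (649 cells), where *Ackr3* was 51.9 CPM (47.7 to 56.3), and only 2 cells in each of the other libraries. Cells with none of these markers had 284, 42.0 and 194 CPM.

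The difference between the libraries was present in each of the 3 groups that all libraries held. The Vehicle level relative to the Matrigel-only level was 0.587 in *Pi16* cells (0.525 to 0.655), 0.471 in *Sox9* cells (0.410 to 0.541) and 0.148 in cells with none of the markers (0.103 to 0.207). The Palo level relative to the Vehicle level was 1.24 (1.10 to 1.41), 1.76 (1.53 to 2.03) and 4.63 (3.30 to 6.69). The ratios in *Pi16* cells were nearer to 1 than in the class as a whole, and the share of *Pi16* cells among those that were stromal only was 56.1% with Matrigel alone, 11.4% with BMP2 and vehicle, and 32.5% with BMP2 and palovarotene. These shares were counted at full depth, which differed between the libraries. How much of the difference in the class came from the make-up of the stroma was not tested.

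**Figure D3:**
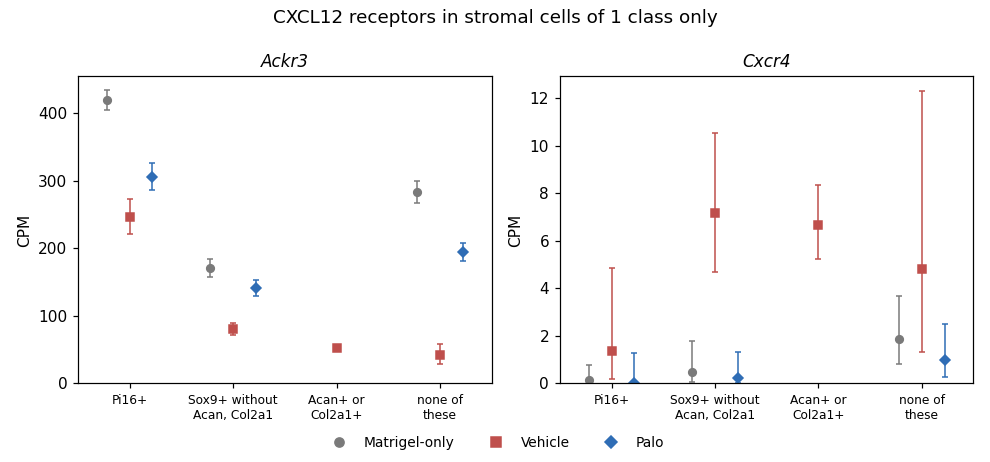
*Ackr3* and *Cxcr4* levels (CPM, with exact Poisson 95% intervals) in 4 groups of stromal cells of 1 class only, for the Matrigel-only, Vehicle and Palo libraries. Groups under 20 cells are not drawn, which leaves only the Vehicle library for *Acan* or *Col2a1* cells. *Ackr3* stood at 419 CPM in Matrigel-only and 246 CPM in Vehicle *Pi16* cells, and *Cxcr4* was highest in Vehicle cells with *Sox9* or cartilage genes.

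*Ackr3* and its ligand gene *Cxcl12* had the same order of libraries, and whether they lay in the same cells differed between them. *Cxcl12* stood at 304, 67.7 and 230 CPM in stromal cells. At 1000 UMIs, 2.74% of Matrigel-only stromal cells had both genes, where the product of their separate shares was 4.90%, and 1.53% of Palo cells did against a product of 3.02%. In the Vehicle library 1.11% had both against a product of 0.386%. Pairs were thus below the product in the Matrigel-only and Palo libraries and above it in the Vehicle library.

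*Cxcr4*, which steers many cell types toward CXCL12, ran the other way in the stroma. Its level was 2.44 CPM in the Matrigel-only library (49 UMIs), 7.80 in the Vehicle library (184 UMIs) and 1.20 in the Palo library (19 UMIs). With cells of 1 class only these became 0.761 (0.380 to 1.36), 6.44 (5.26 to 7.81) and 0.467 (0.152 to 1.09), and the Vehicle interval overlapped neither of the others. The Vehicle level was then 8.46-fold the Matrigel-only level (4.54 to 17.5) and 13.8-fold the Palo level (5.72 to 43.3). The thinned shares of all stromal cells were 0.257%, 0.714% and 0.108%. In Vehicle cells that were stromal only, *Cxcr4* was 6.65 CPM with *Acan* or *Col2a1* (74 UMIs), 7.17 with *Sox9* but neither of these (26 UMIs) and 1.34 with *Pi16* (2 UMIs). The *Sox9* cells of the Matrigel-only and Palo libraries held 2 and 1 UMIs.

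A low level in stromal cells can be set by RNA from leukocytes in the same droplet. The stromal levels of *Ccr1*, *Ccr2*, *Cxcr4* and *Cx3cr1*, receptors that were high in macrophages, were therefore set beside those of 7 leukocyte markers (*Ptprc*, *Tyrobp*, *Fcer1g*, *Laptm5*, *Coro1a*, *Cd52* and *Lyz2*). Cells of no class were left out of this comparison. In cells of 1 class only the stromal level of these markers was 0.482% to 1.30% of the macrophage level in the Matrigel-only library, 0.367% to 0.707% in the Vehicle library and 0.497% to 0.936% in the Palo library. *Ccr2* stood at 0.784%, 0.463% and 0.398% and *Ccr1* at 0.704%, 0.339% and 0.397%, within or under the range of the markers. *Cxcr4* stood at 8.84% in the Vehicle library (7.16 to 10.8), above all 7 markers, and at 1.76% (0.874 to 3.16) and 1.22% (0.395 to 2.85) in the others, where the interval reached into the range of the markers. *Cx3cr1* stood at 4.28% in the Matrigel-only library, and at 1.53% (1.13 to 2.04) in the Vehicle library, with both intervals above all 7 markers, and at 1.29% (0.707 to 2.17) in the Palo library. *Cxcr2* and *Cxcr6* were too low in macrophages for such a band, and their stromal levels in cells of 1 class rest on 11, 31 and 8 UMIs and on 1, 12 and 2 UMIs. The stromal UMIs of *Cx3cr1* were concentrated, with 37 UMIs in 17 Matrigel-only cells and 48 in 20 Vehicle cells, and up to 11 in 1 cell. The intervals treat UMIs as independent and are too narrow for UMIs clumped in this way. In the Palo library the 14 UMIs of *Cx3cr1* lay in 14 cells.

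**Figure D4:**
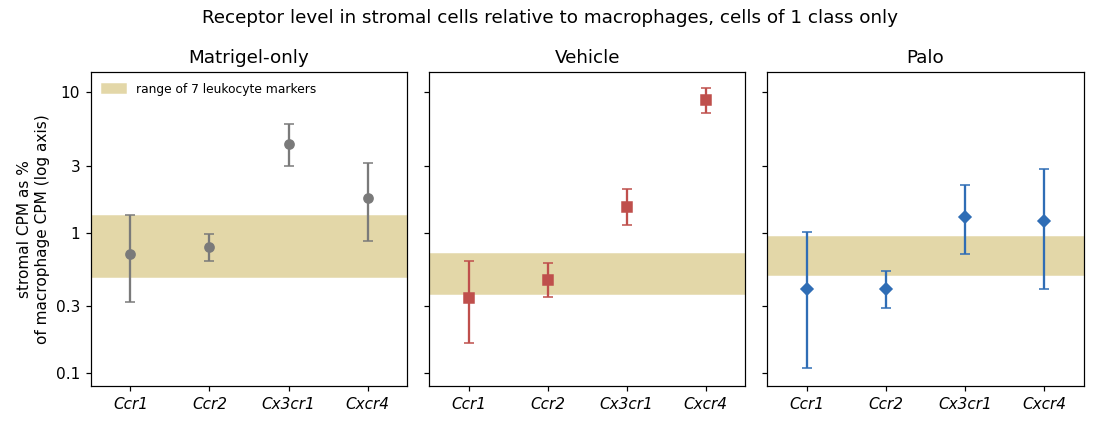
Stromal level as a percent of the macrophage level (logarithmic axis, with 95% intervals) for 4 receptors in cells of 1 class only, in the 3 libraries. The band is the range of 7 leukocyte markers in the same cells. *Cxcr4* in the Vehicle library, at 8.84%, stood above the band, and *Ccr1* and *Ccr2* stood within or under it.

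The stromal cells that carried these receptors differed in their leukocyte content. The 79 Vehicle cells with *Cxcr4* had leukocyte markers at 141 CPM (123 to 161) against 60.4 (56.5 to 64.6) in the 916 without, and 31 of the 79 (39.2%) had no UMI of the markers against 45.2%. The carriers were also deeper, with a median of 19451 UMIs against 15813.5. Vehicle stromal cells with *Ccr2* had leukocyte markers at 353 CPM against 53.5, Matrigel-only ones at 665 against 83.0 and Palo ones at 492 against 108. For *Cxcr4* the 11 Matrigel-only carriers had leukocyte markers at 372 CPM against 108, and the 5 Palo carriers at 42.7 CPM (8.81 to 125) against 129. Stromal cells with *Cx3cr1* had leukocyte markers at 224 CPM against 110 in the Matrigel-only library. In the Vehicle library these were 410 against 60.8 CPM and in the Palo library 747 against 118 CPM. Leukocyte markers were thus higher in the cells with *Ccr2* or *Cx3cr1* in every library and higher in those with *Cxcr4* in 2 of the 3. The part of leukocyte RNA in the stromal levels of *Ccr2*, *Cx3cr1* and *Cxcr4* was not tested. Over all stromal cells *Ccr2* was 25.3, 12.5 and 30.2 CPM while the summed leukocyte markers were 725, 269 and 673 CPM, both lowest in the Vehicle library.

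Only 2 of the 9 receptors, *Ccr2* and *Ackr3*, passed the filter on low values in stromal cells, a mean of 5 CPM over the libraries and 20 UMIs in all. Between the Vehicle and Matrigel-only libraries 1 of these, *Ackr3*, was at least 2-fold lower in Vehicle (9.24% of 10311 genes were) and 0 were 2-fold higher (4.18% of genes). Between the Palo and Vehicle libraries both were at least 2-fold higher in Palo (6.59% of genes), by 1.21 for *Ccr2* and 1.61 for *Ackr3* on the log2(CPM + 1) scale, and 0 were lower (4.26% of genes). With cells of 1 class only the *Ccr2* ratio was 1.28 (0.842 to 1.94) and the call was lost. Neither was 2-fold apart between Palo and Matrigel-only (0.592% of genes were higher and 1.71% lower in Palo). The median of the 2 receptors was -1.55, 1.41 and -0.15 on that scale for the 3 comparisons in this order, against -0.04, 0.01 and -0.03 over all genes.

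In macrophages *Ccr2* was highest under palovarotene, while *Ccr1*, *Cxcr4* and *Cx3cr1* were highest under BMP2 with vehicle. *Ccr2* lies on chromosome 9 at 124101950 to 124113557, plus strand. It stood at 587 CPM in the Matrigel-only library (578 to 596), 483 in the Vehicle library (474 to 492) and 909 in the Palo library (899 to 920). At 1000 UMIs, 40.0%, 38.3% and 55.8% of macrophages had a UMI of *Ccr2*, against 2.12%, 1.10% and 2.32% of stromal cells. The Palo level was 1.88-fold the Vehicle level (1.84 to 1.93) and 1.55-fold the Matrigel-only level (1.52 to 1.58). The Vehicle level was 0.823 of the Matrigel-only level, and with cells of 1 class only this ratio was 0.980 (0.956 to 1.01), at 710 and 724 CPM, beside 1058 CPM in the Palo library. The higher Palo level remained in those cells, at 1.49-fold the Vehicle level (1.46 to 1.53).

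*Cx3cr1* (chromosome 9, 119901616 to 120069879, minus strand) stood at 49.0 CPM in the Matrigel-only library (46.3 to 51.8), 132 in the Vehicle library (127 to 137) and 86.9 in the Palo library (83.7 to 90.2), and its annotated span overlaps *Gorasp1*, *Csrnp1* and *Xirp1* on the same strand. The Vehicle level was 2.69-fold the Matrigel-only level (2.52 to 2.88), and the Palo level lay between, 1.77-fold the Matrigel-only level (1.66 to 1.90). *Ccr1* (chromosome 9, 123962124 to 123968692, minus strand), a receptor of inflammatory CC chemokines, stood at 72.1, 123 and 80.6 CPM, with the Vehicle level 1.70-fold the Matrigel-only level (1.61 to 1.81). *Cxcr4* stood at 35.7 (33.5 to 38.1), 51.9 (48.9 to 55.0) and 32.9 (30.9 to 34.9) CPM, with the Vehicle level 1.45-fold the Matrigel-only level (1.33 to 1.59). For *Cxcr4* the Palo and Matrigel-only libraries could not be told apart within counting error, at a ratio of 0.920 (0.842 to 1.01). With cells of 1 class only the Vehicle level was higher by more, 3.24-fold for *Cx3cr1*, 2.06-fold for *Ccr1* and 1.68-fold for *Cxcr4*. The thinned shares of macrophages were 5.66%, 15.9% and 9.79% for *Cx3cr1*, 7.97%, 14.3% and 8.38% for *Ccr1*, and 4.22%, 7.88% and 3.69% for *Cxcr4*, and no stromal share of the 3 receptors exceeded 0.714%.

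The receptors differed between groups of macrophages as well, and the groups were in different shares in the libraries. Among cells that were macrophages only, those with *Lyve1* or *Folr2*, genes of resident macrophages, were 58.8%, 36.1% and 50.3%. Those with at least 2 UMIs of *Retnla*, a gene of alternative activation, were 38.2%, 9.03% and 36.8%. Those with *Mmp12* or *Itgax* were 13.7%, 15.9% and 26.0%, and those with *Ly6c2* or *Chil3*, genes of fresh monocytes, 0.362%, 8.44% and 0.866%. The groups overlap. *Ccr2* was lowest in the *Lyve1* or *Folr2* cells, at 458, 445 and 801 CPM, and highest in the *Mmp12* or *Itgax* cells, at 1174, 1004 and 1326 CPM. The Palo level of *Ccr2* relative to Vehicle was 1.80 in the *Lyve1* or *Folr2* cells (1.72 to 1.88), 1.43 in the *Retnla* cells (1.36 to 1.51), 1.32 in the *Mmp12* or *Itgax* cells (1.27 to 1.37) and 0.969 in the *Ly6c2* or *Chil3* cells (0.827 to 1.13). The last group held 49 Palo cells.

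*Cx3cr1* and *Cxcr4* went in opposite directions in different groups. In *Lyve1* or *Folr2* cells *Cx3cr1* stood at 50.7, 177 and 122 CPM, and the Vehicle level was 3.49-fold the Matrigel-only level (3.16 to 3.85). In *Mmp12* or *Itgax* cells it was 3.39-fold (2.74 to 4.21), and in cells with the cell cycle genes *Mki67* or *Top2a* 3.09-fold (2.57 to 3.74), while in *Ly6c2* or *Chil3* cells the ratio was 0.784 with a wide interval (0.383 to 1.86). In *Retnla* cells *Cx3cr1* stood at 40.8, 18.9 and 53.3 CPM, so that the Vehicle level was the lowest, at 0.462 of the Matrigel-only level (0.315 to 0.659). *Cxcr4* in *Retnla* cells stood at 35.0, 19.4 and 34.6 CPM, with Vehicle at 0.555 of Matrigel-only (0.379 to 0.789), while in *Lyve1* or *Folr2* cells it stood at 39.7, 58.3 and 37.4 CPM with a ratio of 1.47 (1.28 to 1.69). The Vehicle *Retnla* group held 290 cells, with 34 UMIs of *Cx3cr1* and 35 of *Cxcr4*. *Ccr1* kept 1 direction, with Vehicle 1.64-fold to 3.33-fold the Matrigel-only level in the 5 groups, and was highest in the Vehicle *Ly6c2* or *Chil3* cells, at 428 CPM. The difference between groups was not tested, since each library is 1 sample.

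**Figure D5:**
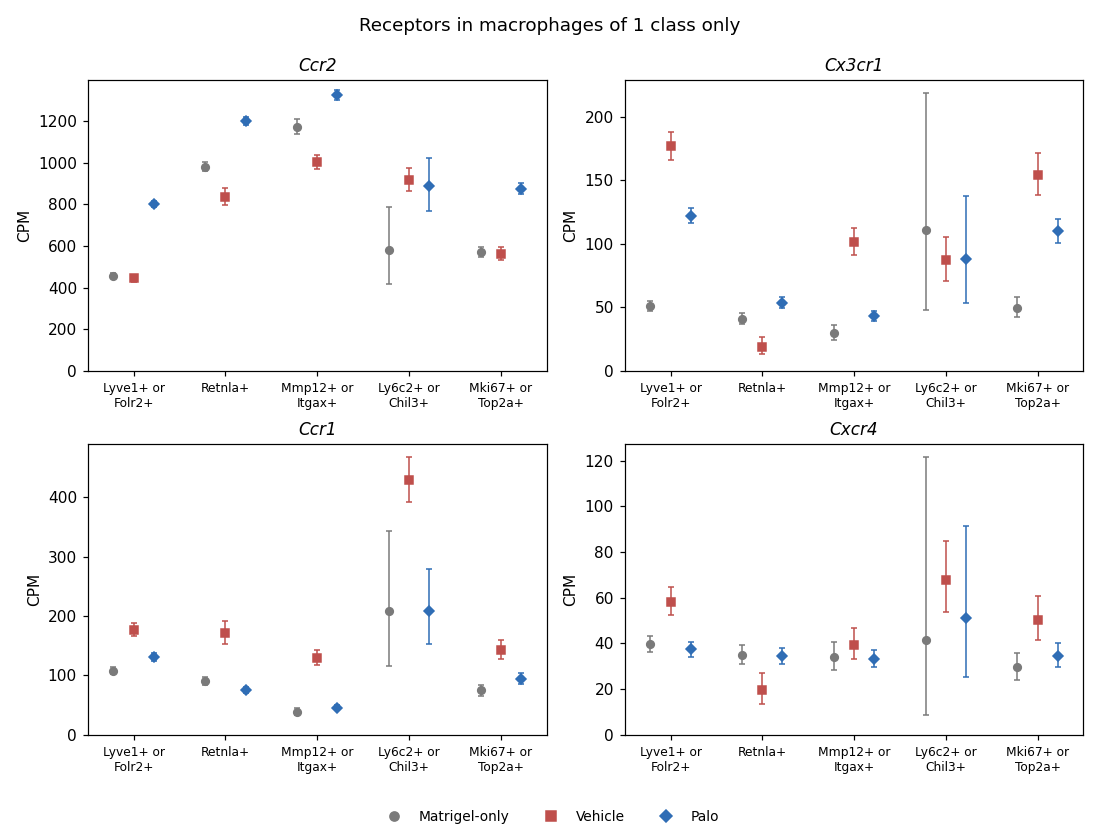
Level (CPM, with exact Poisson 95% intervals) of *Ccr2*, *Cx3cr1*, *Ccr1* and *Cxcr4* in 5 overlapping groups of macrophages of 1 class only, for the Matrigel-only, Vehicle and Palo libraries. *Cx3cr1* in Vehicle cells was 177 CPM in the *Lyve1* or *Folr2* group and 18.9 CPM in the *Retnla* group.

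At 1000 UMIs *Ccr2* and *Cx3cr1* were found together in 2.96%, 7.83% and 5.85% of macrophages, where the products of their shares were 2.26%, 6.07% and 5.46%. *Ccr2* and *Cxcr4* were together in 1.53%, 2.93% and 2.04%, close to the products of 1.69%, 3.02% and 2.06%. *Ackr3* in macrophages was 62.2, 30.0 and 37.3 CPM over all cells of the class. With cells of 1 class only it was 4.38, 8.65 and 1.90 CPM, and the Vehicle level was 1.98-fold the Matrigel-only level (1.49 to 2.63) in place of 0.482. The macrophages of 1 class that held *Ackr3* had stromal markers at 757, 1047 and 798 CPM, against 582, 625 and 394 in those without.

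The filter on low values was passed by 5 receptors in macrophages (*Ccr1*, *Ccr2*, *Cxcr4*, *Cx3cr1* and *Ackr3*). Between the Vehicle and Matrigel-only libraries *Cx3cr1* was at least 2-fold higher (4.34% of 10265 genes were) and *Ackr3* at least 2-fold lower (3% of genes). Between the Palo and Vehicle libraries 0 of the 5 were 2-fold apart (2.23% of genes were higher and 6.22% lower in Palo), and *Ccr2* came nearest, at 0.91 on the log2(CPM + 1) scale. Between the Palo and Matrigel-only libraries 0 were 2-fold apart (0.585% of genes were higher and 1.82% lower in Palo). The medians of the 5 were 0.53, -0.60 and 0.16 for these comparisons, against -0.01, -0.14 and -0.15 over all genes. TMM scaling raises every macrophage log2 ratio of Palo by 0.16 in both comparisons, and *Ccr2* is then 1.07 above Vehicle and past 2-fold.

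In lymphocytes *Cxcr6*, a receptor that holds effector T cells and NK cells in tissue, was found in every library. *Cxcr6* lies on chromosome 9 at 123806475 to 123811760, plus strand, and overlaps *Fyco1* on the other strand. It stood at 135 CPM in the Matrigel-only library (96.0 to 184, 39 UMIs), 169 in the Vehicle library (146 to 194, 195 UMIs) and 153 in the Palo library (115 to 200, 54 UMIs), with overlapping intervals. The thinned shares of lymphocytes were 20.7%, 15.0% and 26.0%, against at most 0.155% of macrophages and 0.0821% of stromal cells. Once cells of more than 1 class were left out, the levels were 357 (244 to 504), 258 (218 to 303) and 425 (316 to 561) CPM, and the Palo level was 1.65-fold the Vehicle level (1.17 to 2.29). These rest on 32, 149 and 50 UMIs in 15, 60 and 21 cells. The intervals treat UMIs as independent and are too narrow for UMIs clumped in this way. The 2 kinds of lymphocyte had unlike levels of *Cxcr6*. In cells with *Cd3e* it stood at 371 CPM in the Vehicle library (95 cells) and in cells with *Nkg7* and no *Cd3e* at 151 CPM (133 cells), while in the Palo library the *Nkg7* cells had 529 CPM (35 cells). The Matrigel-only *Cd3e* cells, 14 in number, had 1264 CPM (792 to 1914), an interval with the same limit. Over all lymphocytes the order of the 2 kinds differed between libraries. *Cxcr6* was 255 CPM in *Cd3e* and 83.1 in *Nkg7* cells of the Vehicle library, and 22.7 (5 UMIs) and 372 in the Palo library. In the Matrigel-only library these were 131 and 142 CPM with overlapping intervals. Of the 20 Palo *Cd3e* cells, 50% also met the stromal rule.

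*Ccr2* in lymphocytes stood at 343 (278 to 417), 560 (517 to 604) and 420 (355 to 493) CPM. The Vehicle library was the highest here and the lowest in macrophages, and this was no longer so in cells of 1 class only, at 814 (638 to 1023), 754 (685 to 829) and 876 (715 to 1063) CPM with overlapping intervals. Thinned shares were 41.4%, 40.8% and 44.1%. How reads that fit *Ccr2* and another gene were counted was not checked here, and the same holds for *Ccr1* and its close relative *Ccr1l1*. *Cxcr4* rests on 15, 52 and 6 UMIs, at 51.9 (29.0 to 85.6), 45.0 (33.6 to 59.1) and 17.0 (6.25 to 37.1) CPM.

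*Ccr3* was found in lymphocytes of the Vehicle library alone. *Ccr3*, the eotaxin receptor of eosinophils, basophils and some T cells, lies on chromosome 9 at 124021972 to 124031689, plus strand. The Vehicle lymphocytes held 26 UMIs in 14 cells, 22.5 CPM (14.7 to 33.0), and the other libraries 0, where the floor of 3 UMIs per library is 10.4 CPM in the Matrigel-only and 8.51 CPM in the Palo lymphocytes. Against that floor the Vehicle level was at least 2.17-fold higher than the Matrigel-only level and at least 2.65-fold higher than the Palo level. These bounds leave out the counting error of the Vehicle UMIs. The intervals of the ratios, which include it, had lower limits of 1.64 and 2.00. With lymphocytes of 1 class only (24 UMIs in the Vehicle library) the floors were 33.4 and 25.5 CPM, and the bounds came down to 1.24-fold and 1.63-fold. The lower limits of the ratios were then 0.934 and 1.22, so Vehicle and Matrigel-only could not be told apart within counting error. Of the 14 cells, 12 held *Cd3e*, against 40.2% of the other Vehicle lymphocytes, and 13 held *Ccr2*, against 57.6%. *Gata3*, a factor of type 2 T cells, was found in 8 of the 14 against 33.9%, and *Il1rl1*, the IL-33 receptor, in 6 against 8.12%. *Mcpt8*, a basophil protease, was in 1 of them, and the 14 cells were deeper, with a median of 3269.5 UMIs against 2270.

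The Vehicle lymphocytes also held basophil genes, so *Cxcr2* and *Ccr3* were also counted without the cells that held them. The 7 basophil markers summed to 1053 CPM in Vehicle lymphocytes, against 3.46 in the Matrigel-only and 0 in the Palo library, where 6 and 7 of the markers were at 0, and 21 of the 285 Vehicle cells had at least 2 UMIs of these markers. *Cxcr2* was at 19.1 CPM in Vehicle lymphocytes (22 UMIs) and at 0 UMIs in the others. In the Vehicle lymphocytes of 1 class that had no UMI of a basophil gene, a group chosen after the data were seen, *Cxcr2* was down to 4 UMIs in 1 cell, and *Ccr3* stayed at 22 UMIs and 40.6 CPM.

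The filter was passed by 8 receptors in lymphocytes, all but *Ccr7*. *Ccr3* and *Cxcr2*, at 0 UMIs in the Matrigel-only and Palo lymphocytes, passed only through the Vehicle library. *Ccr1* (1, 37 and 2 UMIs) and *Cx3cr1* (3, 40 and 2 UMIs) also reached the UMI limit of the filter only through that library. The directions of *Ccr1*, *Ccr3*, *Cxcr2* and *Cx3cr1* against Vehicle were thus fixed by the filter. The medians of the comparisons with Vehicle include these receptors, so their distance from the medians over all genes is partly set by the filter. On the log2(CPM + 1) scale 4 were past 2-fold higher in Vehicle than in Matrigel-only (*Ccr1*, *Ccr3*, *Cxcr2* and *Cx3cr1*, against 10.7% of 8992 genes) and 1, *Ackr3*, was lower (10.2% of genes). Relative to Vehicle, *Ackr3* was higher in Palo (8.55% of genes) and 5 were lower (*Ccr1*, *Ccr3*, *Cxcr2*, *Cxcr4* and *Cx3cr1*; 10.3% of genes). Between the Palo and Matrigel-only libraries *Cxcr4* was lower (8.59% of genes) and 0 were higher (7.96% of genes). The medians of the 8 were 1.18, -1.83 and 0.00, or 0.76 and -1.19 for the comparisons with Vehicle when receptors at 0 UMIs were set to the floor, against 0.03, -0.05 and -0.02 over all genes. At the floor *Cxcr2* was at least 1.84-fold higher in Vehicle than in Matrigel-only, under 2-fold. With the counting error of the Vehicle UMIs the lower limit of this ratio was 1.37. Most of these calls rest on few UMIs. *Cx3cr1* had 3, 40 and 2 UMIs and *Ccr1* 1, 37 and 2. In lymphocytes of 1 class only these were 0, 4 and 2 for *Cx3cr1* and 0, 14 and 2 for *Ccr1*. *Ackr3*, at 152, 36.4 and 105 CPM, was down to 0, 5 and 1 UMIs when cells of more than 1 class were left out.

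*Ccr7* lay mainly outside the 3 classes in every library, and *Cxcr2* did so in the Vehicle library. Cells of no class held 23.1%, 64.9% and 51.2% of the *Cxcr2* UMIs. In the Matrigel-only library 42.3% of them lay in cells that were stromal only. *Ccr7* (chromosome 11, 99144196 to 99155077, minus strand), which leads mature dendritic cells and naive T cells to lymph nodes, had 24, 264 and 86 UMIs in all cells. Cells of no class held 87.5%, 75.8% and 89.5% of them, at 11.5, 121 and 59.7 CPM. Most *Ccr7* UMIs lay in the 15, 68 and 25 cells outside the stroma with at least 2 UMIs of *Ccl22* and *Fscn1*, genes of mature dendritic cells. These cells held 20, 235 and 62 of the UMIs, at 154 (94.3 to 238), 369 (324 to 420) and 427 (327 to 547) CPM. In the Palo library a further 21 UMIs lay in 44 cells with the B cell genes *Cd79a* or *Ms4a1*, while such cells of the other libraries, 9 and 15 in number, held 0. Macrophages held 0, 57 and 7 UMIs, and the 57 Vehicle UMIs lay in 11 cells.

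*Cxcr2* (chromosome 1, 74153989 to 74161246, plus strand), the receptor by which neutrophils follow CXCL1 and CXCL2, had 26, 427 and 43 UMIs in all cells. In cells of no class it stood at 3.27 (1.20 to 7.12), 167 (148 to 188) and 17.1 (10.7 to 25.8) CPM, so the Vehicle level lay far above both others. The Vehicle library held 61 cells with at least 1% of their UMIs from *S100a8* and *S100a9*, genes of neutrophils, and the others 2 and 11. *Cxcr2* stood at 3408 CPM in the 61 cells (2887 to 3995, 152 UMIs) and at 1057 CPM in the 11 Palo cells (563 to 1808, 13 UMIs). Cells with the basophil genes *Mcpt8* or *Cyp11a1*, 131 in the Vehicle library against 7 and 9, held 113 further UMIs at 162 CPM (133 to 195). These 2 groups thus held most of the *Cxcr2* of the Vehicle library, 35.6% and 26.5% of its UMIs. *Ccr1* was also high in the neutrophil group, at 1099 CPM in the Vehicle library (813 to 1452), where *Ccr2* had 1 UMI.

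The other chemokine receptors and the ligands were examined by list. Of 14 other receptors, 3 passed the filter in stromal cells. These, *Ackr1*, *Ackr2* and *Cmklr1*, which bind chemokines or chemerin, were all at least 2-fold lower in the Vehicle than in the Matrigel-only library and higher in the Palo than in the Vehicle library. *Ackr2* was also lower in the Palo than in the Matrigel-only library (1.71% of genes). Its Vehicle and Palo levels lay under 5 CPM, and it passed the filter only through the Matrigel-only library. The direction of its calls against that library was thus fixed by the filter. The levels were 26.6, 5.72 and 15.4 CPM for *Ackr1*, 11.6, 1.06 and 4.99 for *Ackr2* and 26.5, 7.93 and 20.7 for *Cmklr1*. The order of the libraries was that of *Ackr3*. Of all genes 9.24% were lower in Vehicle and 6.59% higher in Palo to this degree, and the summed leukocyte markers of these cells ran the same way (725, 269 and 673 CPM). In cells of 1 class only the same 3 receptors were past 2-fold in both comparisons. Of 10219 genes 9.03% were lower in Vehicle and 6.59% higher in Palo there, and *Ackr2* again passed only through the Matrigel-only library. The levels in these cells were 29.9, 5.70 and 16.6 CPM for *Ackr1*, 12.6, 1.36 and 5.23 for *Ackr2* and 25.6, 6.81 and 19.9 for *Cmklr1*. In macrophages 2 passed, and *Ccrl2*, an atypical receptor of chemerin, stood at 33.5, 10.4 and 70.1 CPM. In lymphocytes 3 passed, with *Cxcr3* at 45.0, 49.4 and 34.1 CPM.

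Of 22 ligands, 15 passed in stromal cells. Between the Vehicle and Matrigel-only libraries 8 were lower and 2 higher, and between the Palo and Vehicle libraries 6 were higher and 3 lower, with medians of -1.12 and 0.60 on the log2(CPM + 1) scale. Over all genes 9.24% were lower and 4.18% higher in the former and 6.59% higher and 4.26% lower in the latter. In cells of 1 class only 12 passed, with 5 lower and 2 higher in Vehicle than in Matrigel-only (9.03% and 4.56% of 10219 genes) and 4 higher and 2 lower in Palo than in Vehicle (6.59% and 4.45% of genes), so part of the calls was lost with the cells that met other rules. *Ccl5*, counted there as higher in Vehicle and lower in Palo, stood at 0.346, 24.9 and 0.467 CPM. It passed only through the Vehicle library, so the direction of its calls was fixed by the filter. It was also among the calls over all stromal cells. *Ccl2*, the main ligand of CCR2, stood at 437, 103 and 530 CPM in stromal cells and at 293, 284 and 319 CPM in macrophages. Among macrophages of 1 class only *Ccl2* stood at 237, 374 and 281 CPM, and the Vehicle library was then the highest. *Cxcl1*, a ligand of CXCR2, stood at 20.3, 2.46 and 21.5 CPM in stromal cells, lowest in the library where *Cxcr2* was highest. In macrophages 16 ligands passed. Between Vehicle and Matrigel-only 3 were higher (4.34% of genes) and 4 lower (3% of genes) in Vehicle, with a median of 0.07. Among the 14 that passed in cells of 1 class only, 5 were higher (3.42% of 9539 genes) and 3 lower (2.26% of genes), with a median of 0.74. *Ccl24*, an eotaxin and ligand of CCR3, stood at 182, 781 and 120 CPM in macrophages. *Cxcl16*, the ligand of CXCR6, stood at 151, 277 and 186 CPM, and *Cx3cl1*, which encodes fractalkine, at 6.73, 8.14 and 5.05 CPM in stromal cells.

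Of 25 genes of receptor signalling, 14 passed in stromal cells, where 4 (*Arrb2*, *Grk5*, *Rgs2* and *Rac2*) were lower in Vehicle than in Matrigel-only (9.24% of genes) and 0 higher. In cells of 1 class only 12 passed and *Grk5*, a receptor kinase, alone was lower (9.03% of genes), at 14.8, 3.65 and 11.4 CPM. Over all stromal cells *Grk5*, *Rgs2*, *Rgs10* and *Rac2* were higher in Palo than in Vehicle (6.59% of genes) and *Arrb1* lower (4.26% of genes). *Arrb1*, a β-arrestin through which ACKR3 acts, was also lower in Palo than in Matrigel-only (1.71% of genes), at 21.9, 27.0 and 10.4 CPM. In stromal cells of 1 class only it stood at 19.7, 25.4 and 9.07 CPM and kept both calls (4.45% and 1.86% of genes). Of the higher genes *Grk5* alone was still past 2-fold there (6.59% of genes). All 25 passed in macrophages, with 0 called between Vehicle and Matrigel-only. Relative to Vehicle 3 were higher in Palo macrophages (2.23% of genes), all of the RGS family that ends G protein signals: *Rgs1* at 29.3, 24.5 and 76.7 CPM, *Rgs2* at 287, 156 and 376 CPM and *Rgs18* at 30.5, 15.4 and 35.6 CPM. Only *Rgs1* was past 2-fold in macrophages of 1 class only (1.6% of 9539 genes), at 35.5, 33.3 and 89.3 CPM.

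For each receptor the genes with the most similar level over 12 groups of cells, the 3 classes and the cells of no class in 3 libraries, were found among 12872 genes. The groups share libraries and cells, so these Pearson correlations of log2(CPM + 1) are descriptions. *Ccr2* was closest to *Itgb2* (0.998), the leukocyte integrin chain, *Ackr3* to *Prss23* (0.989) and *Cxcr6* to *Acap1* (0.991). *Ccr1* was closest to *Hk3* (0.981), *Cx3cr1* to *Ms4a6d* (0.967) and *Cxcr4* to *Crybg1* (0.977). *Cxcr2* was closest to *Hdc* (0.961), the histamine-forming enzyme of basophils and mast cells. *Ccr7* was closest to *Bcl2l14* (0.969) and *Ccr3* to *B630019A10Rik* (0.974), with *Lag3* and *Il13* next.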

How the data were processed

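Cells of day 5 masses were profiled in 1 droplet library (10x Chromium) per group. The authors made the deposited counts, UMIs per gene and barcode, with Cell Ranger 3.0.2 on the mm10 genome and filtered and clustered them in Seurat 3. No normalized value or cell annotation was used here, and no column lacked a sample. The strand setting of the counting and the treatment of reads that fit 2 genes are not given in the sources used here. The authors' limits on cells (200 to 6000 genes, at most 5% mitochondrial UMIs) were applied to the barcodes. No doublet caller was run, and cells of 1 class only and the loss of the deepest 1% of cells stand in for one. UMIs were summed per class and library and given as CPM with exact Poisson intervals. Shares of cells with a receptor UMI were computed with Clopper-Pearson intervals after thinning to 1000 UMIs by the hypergeometric formula. Ratios have conditional binomial intervals. A gene was called at a difference of at least 1 in log2(CPM + 1), among genes with a mean of 5 CPM over the libraries and 20 UMIs. The text names the 9 receptors, genes of fixed lists of other receptors, ligands and signalling genes past 2-fold or at the highest level, and the genes closest to each receptor over the groups of cells. The *Ccl22*, *Fscn1* and other groups of cells were set by fixed marker rules. A gene of the list of other receptors is not reported here. The members and lists were chosen with earlier results of these data known. The lymphocytes free of basophil genes, the lists in cells of 1 class only, and the choice of which cell groups and list genes to describe, came after the values were seen. Sums and intervals were computed in Python 3.11.15 (scipy 1.17.1, numpy 2.4.6, pandas 2.3.3), figures with matplotlib 3.10.9 and TMM factors with edgeR 4.0.16 in R 4.3.3. Coordinates of genes were read from the GENCODE vM21 annotation of mm10.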

Additional observations from a re-analysis of the deposited data

Results flagged for a closer look

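*Ccr2* differed in opposite directions between the classes, and the difference between classes was not tested. Its Palo level was 2.41 times the Vehicle level in stromal cells and 1.88 times in macrophages but 0.751 of it in lymphocytes. Its Vehicle level was 1.63 times the Matrigel-only level in lymphocytes but 0.494 of it in stromal cells and 0.823 of it in macrophages. With cells of 1 class only the Palo to Vehicle ratio in lymphocytes was 1.16 (interval 0.928 to 1.44) and the Vehicle to Matrigel-only ratio 0.927 (0.722 to 1.20), so that the opposite directions were no longer seen.

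The 521, 587 and 608 barcodes that failed the limits on cells also carried receptors, some above and some below their level in the failed barcodes of the Matrigel-only library. In the Palo library these barcodes held *Ccr2* at 631 CPM, *Cx3cr1* at 90.1 CPM and *Ccr1* at 71.2 CPM, against 287, 21.4 and 43.3 CPM in the Matrigel-only library. In the Vehicle library they held *Cxcr2* at 3.42 CPM (21 UMIs), against 0 UMIs in the Matrigel-only library and 4.06 CPM (9 UMIs) in the Palo library. *Ccr2*, at 73.3 CPM, and *Cxcr4*, at 8.15 against 20.3 CPM, were lower in the Vehicle than in the Matrigel-only library.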

How the results depend on the processing

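No paired analysis was possible because each group has 1 library, and for the same reason no replicate could be left out. The counts of receptors at least 2-fold apart were small and depended on the cells used. In stromal cells the Vehicle against Matrigel-only count of 1 became 2 with stricter class rules and 2 with no filter on low values, and the Palo against Vehicle count of 2 became 1 in cells of 1 class only and 1 with each cell weighted equally. In macrophages the Vehicle against Matrigel-only count of 2 became 1 with stricter rules, no filter on cells, no deepest 1% of cells, equal weights, thinning or 5 CPM added, and 5 with no filter on low values. The Palo against Vehicle count of 0 became 1 with no filter on cells, equal weights, thinning or TMM, and 3 with no filter on low values, and the Palo against Matrigel-only count of 0 became 1 with stricter rules and 1 without the deepest cells. In lymphocytes the Vehicle against Matrigel-only count of 5 became 2 in cells of 1 class only, 3 with stricter rules and 1 without basophil genes. The Palo against Vehicle count of 6 became 2, 3 and 1 under the same settings, and the Palo against Matrigel-only count of 1 became 2 with stricter rules, 3 with no filter on cells and 3 with equal weights. In lymphocytes of 1 class only, 12.7% of 5728 genes were higher and 7.47% lower in Vehicle than in Matrigel-only. Between Palo and Vehicle 5.2% were higher and 11.8% lower in Palo there. In stromal cells of 1 class only, 6.59% of 10219 genes were higher and 4.45% lower in Palo than in Vehicle. Under the other settings the share over all genes was not computed, so no move can be read as particular to the receptors. The cause of these moves was not tested.

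The log2 ratio of *Ackr3* in macrophages, Vehicle over Matrigel-only, turned to 0.84 in cells of 1 class only. In lymphocytes of 1 class some values changed sign on so few UMIs that no direction can be read from them. *Ackr3*, Vehicle over Matrigel-only, became 3.27, or 3.35 without basophil genes, on 5 UMIs in 1 cell against 0. For Palo over Vehicle, *Ackr3* became -0.022 on 1 against 5 UMIs (fold 0.983, interval 0.0208 to 8.79), or -0.10 without basophil genes, *Cx3cr1* 1.19 on 2 against 4 UMIs (fold 2.46, interval 0.222 to 17.2), or 1.46, and *Ccr1* 0.19 without basophil genes, on 2 against 8 UMIs. In cells of 1 class only, 4 of the 45 log2 ratios were past 2-fold and changed sign. Another 24 moved by more than the distance from the middle of their interval to its limit, and 17 did not. TMM moved 12 and the limit of 10% on mitochondrial UMIs 2. *Ackr3* in stromal cells stayed between -2.25 and -2.06 for Vehicle over Matrigel-only, and between 1.41 and 1.65 for Palo over Vehicle, under all alternatives run. The order of the libraries by thinned share was the same at 500, 1000 and 2000 UMIs for 21 of 27 receptors and classes. Depth limits the lymphocytes most, where 1 UMI of a receptor is 3.46 CPM in the Matrigel-only library.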
